A study of Mus musculus with 5 samples.

Results

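The RNA of 10 genes of the neuronal cytoskeleton and of nerve endings was followed in the mouse iridocorneal angle, the corner of the eye where iris and cornea meet and where aqueous humour drains. They were taken by name: the light, medium and heavy neurofilament chains Nefl, Nefm and Nefh, the related intermediate filament proteins Ina (internexin alpha) and Prph (peripherin), the tubulin regulator Stmn2, the deubiquitinating enzyme Uchl1, the synaptic proteins Snap25 and Syt1, and the neuronal beta-tubulin Tubb3. All 10 were found among the 56941 gene identifiers of the count table, and all 10 passed the minimum of 10 reads in at least 1 library that left 19713 genes for testing. Messenger RNA was sequenced from 5 pools of tissue from 12-month-old, untreated mice. There were 3 pools from DBA/2J, the inbred glaucoma strain that carries a premature stop in Gpnmb together with the b allele of Tyrp1, and 2 pools from Gpnmb+ (DBA/2J-Gpnmb+/SjJ), the control strain in which Gpnmb is wild type. The Tyrp1 b allele is common to both groups. Each library name lists 3 animals for a DBA/2J pool and 2 animals for a Gpnmb+ pool, whereas the methods give 3 mice per pool. Iris and ciliary body were dissected away with some remnants left, so both are possible sources of RNA.

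Neurofilaments are the intermediate filaments of axons. Light, medium and heavy chains and internexin alpha assemble together, set the calibre of the axon and are carried along it by kinesin motors on tubulin tracks. Peripherin is typical of peripheral and sensory neurons, and SNAP-25 and synaptotagmin 1 drive calcium-triggered vesicle fusion. Nerve fibres that reach the angle, cornea and ciliary body are sensory and autonomic and have their cell bodies outside the eye, whereas the neighbouring retina holds neuronal cell bodies. Photoreceptors also use SNAP-25 and synaptotagmin 1 at their synapses.

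The libraries held between 43900661 and 49837758 counts. Gpnmb read 1946 to 2234 counts in DBA/2J against 110568 and 129659 with the gene restored, a difference that matches the genotype labels. Y-linked RNA did not follow the description of mixed-sex pools. Ddx3y read 3608, 4168 and 1567 counts in DBA/2J against 0 and 4, Uty and Kdm5d read at most 1 count in either Gpnmb+ pool, and Xist read 596, 0 and 2417 against 7843 and 9152. Genotype and sex composition of the pools therefore cannot be told apart in any comparison below. The Gpnmb+ pools also stood apart from each other in retinal RNA. The summed level of 18 rod and cone photoreceptor genes, in CPM (counts scaled to library size by TMM), was 762, 1072 and 731 in DBA/2J, 448 in Gpnmb+ pool 1 and 2429 in Gpnmb+ pool 2. For this reason the genotype difference of each member is given with both Gpnmb+ pools and with each of them alone. In all values below, DBA/2J pools 1, 2 and 3 come before Gpnmb+ pools 1 and 2, and fold changes are DBA/2J over Gpnmb+. Fewer cells of a type and less RNA per cell cannot be told apart in such bulk samples.

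To ask whether these genes differ with Gpnmb status, all genes were tested together with edgeR's quasi-likelihood test, and a gene was called where it changed by 1.5-fold or more with a Benjamini-Hochberg adjusted p no higher than 0.05. Nefm was called, lower in DBA/2J. It was the only member called of 10, where 0.796% of all genes tested were called and 0.294% were called lower. Nefm was likewise the 1 member called by limma-voom (0.964% of all genes called) and by edgeR with DESeq2's size factors (0.837%). At an unadjusted p under 0.05 there were 3 members, Nefm, Nefl and Stmn2, against 15.9% of all genes. The median log2 fold change of the members was -0.12, beside -0.02 over all genes tested, and its sign turned on 1 library, with 0.63 for Gpnmb+ pool 1 alone and -0.75 for pool 2 alone. Levels in the 2 groups did not overlap for 3 of the 10, with Nefl and Nefm lower and Stmn2 higher in DBA/2J, where 34.5% of all genes did not overlap (17.2% lower and 17.3% higher).

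**Figure D1:**
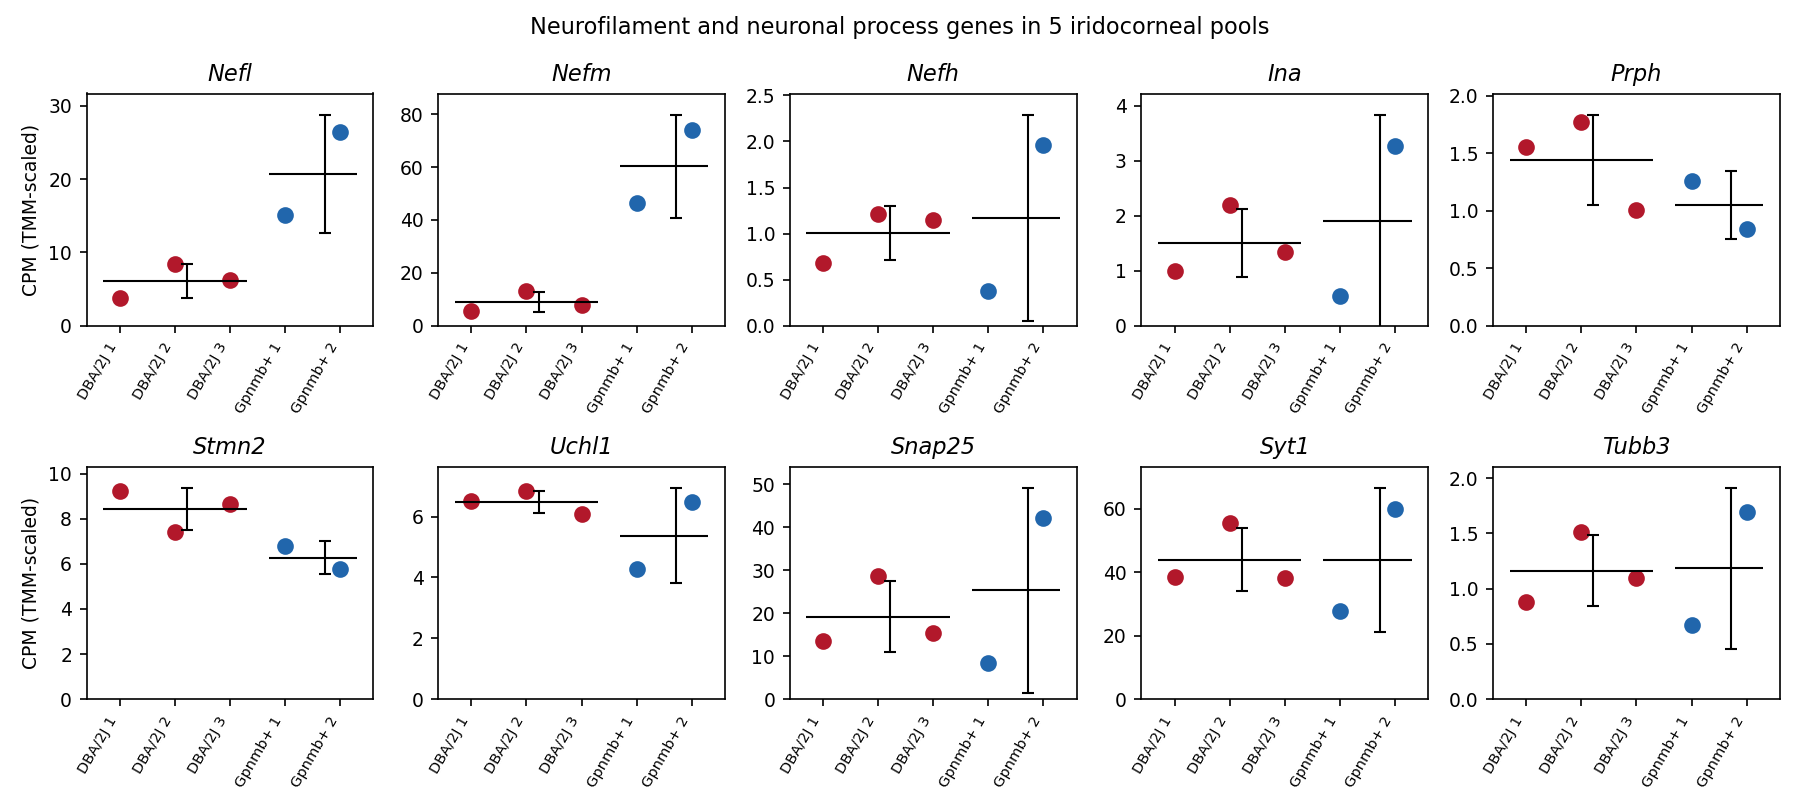
Level of each of the 10 genes in each pool, in TMM-scaled CPM on linear axes that start at 0. Points are pools (red DBA/2J, blue Gpnmb+), horizontal lines group means and bars ± SD (n = 3 and n = 2). Nefl and Nefm are higher in both Gpnmb+ pools than in every DBA/2J pool, while Nefh, Ina, Snap25, Syt1 and Tubb3 have their lowest and highest points in the 2 Gpnmb+ pools.

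The medium chain gene Nefm (ENSMUSG00000022054; chromosome 14, 68320039 to 68362305, minus strand, GRCm39) read 253, 562 and 342 counts in DBA/2J, against 2355 and 3624 in Gpnmb+. Both Gpnmb+ pools lay far above all DBA/2J pools. Its level was 8.82 ± 3.83 CPM in DBA/2J (SD, n = 3) and 60.3 ± 19.6 CPM in Gpnmb+ (SD, n = 2). The fitted log2 fold change was -2.77 (SE 0.37, edgeR adjusted p = 0.0444), which is 6.84-fold higher in Gpnmb+. Against Gpnmb+ pool 1 alone, the pool poor in photoreceptor RNA, the log2 fold change was -2.40 (adjusted p = 0.155). Against Gpnmb+ pool 2 alone it was -3.07 (adjusted p = 0.0455). The call was also lost when any DBA/2J pool was left out (adjusted p = 0.0775 to 0.156), while the log2 fold change stayed between -3.17 and -2.40. Few genes of any kind were called in those fits: 0.0307%, 0.0051% and 0.0868% of all genes without DBA/2J pools 1, 2 and 3, and 0.0103% without Gpnmb+ pool 2, against 1.12% without Gpnmb+ pool 1.

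Nefl, which encodes the light chain on which the other chains assemble (ENSMUSG00000022055; chromosome 14, 68321268 to 68326544, plus strand), read 167, 359 and 279 counts in DBA/2J, against 763 and 1293 in Gpnmb+. The groups did not overlap, and DBA/2J pool 2 was the highest of its group for Nefl as for Nefm. The level was 6.12 ± 2.31 CPM against 20.7 ± 8.06 CPM, a log2 fold change of -1.76 (SE 0.37) that did not pass the threshold (edgeR adjusted p = 0.104). With Gpnmb+ pool 1 alone the value was -1.30, and with Gpnmb+ pool 2 alone -2.11. DESeq2's Wald test, which called 4.7% of all genes (1.94% lower and 2.76% higher in DBA/2J), called Nefl as well as Nefm (adjusted p = 0.000281 for Nefl). The balance between these chains also differed between the groups. Nefm per kb of transcript was 1.55, 1.60 and 1.26 times Nefl in DBA/2J and 3.16 and 2.87 times Nefl in Gpnmb+. This ratio was examined after the values were seen and was not tested. The genes are neighbours, and an extended annotated form of Nefm overlaps the exons of Nefl on the opposite strand over 1152 bases. Counts assigned without regard to strand could be lost or mixed there, and the strand setting was not given in the sources used here. Overlaps here and below come from a later Ensembl release than the one the authors named, so they may differ from those at counting.

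Nefh, the heavy chain gene (ENSMUSG00000020396; chromosome 11, 4888740 to 4898130, minus strand), was measured at low depth and gave 30, 52 and 51 counts in DBA/2J against 19 and 96 in Gpnmb+. The lowest and the highest value were both in Gpnmb+. Its log2 fold change was -0.21 (SE 0.67, edgeR adjusted p = 0.912), and it was 1.42 with Gpnmb+ pool 1 alone and -0.96 with pool 2 alone. Ap1b1, which read 4698 to 5607 counts, overlaps 861 bases of its exons on the opposite strand.

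Ina (ENSMUSG00000034336; chromosome 19, 47003069 to 47013770, plus strand) had the same order of pools, with 44, 94 and 60 counts against 27 and 160. Gpnmb+ pool 2 was 6.15-fold above Gpnmb+ pool 1 in CPM, the widest gap of the 10 genes. The log2 fold change was -0.33 (SE 0.73, edgeR adjusted p = 0.862), turning to 1.50 with pool 1 alone and -1.12 with pool 2 alone. Its exons share 526 bases with Nt5c2 on the opposite strand.

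Prph (ENSMUSG00000023484; chromosome 15, 98952872 to 98956862, plus strand) read 69, 76 and 45 counts in DBA/2J, against 64 and 41 in Gpnmb+. The groups overlapped, and Gpnmb+ pool 2 was its lowest pool. Its log2 fold change was 0.46 (SE 0.35, edgeR adjusted p = 0.579), 0.19 with pool 1 alone and 0.78 with pool 2 alone. Of the 5 filament genes, then, the light and medium chains were lower in every DBA/2J pool, the heavy chain and internexin alpha spanned their full range within Gpnmb+, and peripherin overlapped between the groups.

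**Figure D2:**
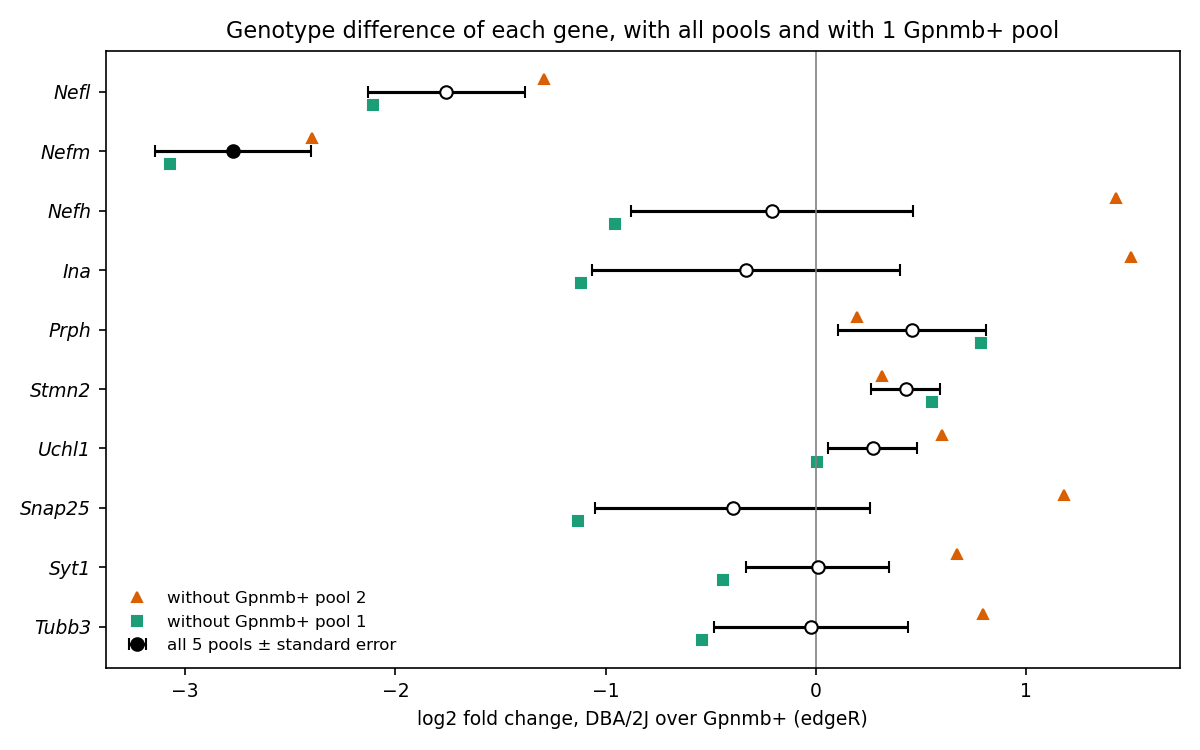
Log2 fold change of each gene, DBA/2J over Gpnmb+, from edgeR. Circles are all 5 pools with bars of ± 1 SE (filled where called), triangles leave out Gpnmb+ pool 2 and squares leave out Gpnmb+ pool 1. Nefl and Nefm stay below 0 in all 3 fits, while Nefh, Ina, Snap25, Syt1 and Tubb3 lie above 0 without pool 2 and below 0 without pool 1.

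Snap25, a membrane protein of the vesicle fusion complex (ENSMUSG00000027273; chromosome 2, 136533580 to 136624362, plus strand), read 601, 1232 and 687 counts in DBA/2J, against 430 and 2060 in Gpnmb+. Gpnmb+ pool 1 was below and pool 2 above every DBA/2J pool. The level was 19.2 ± 8.28 CPM against 25.3 ± 23.8 CPM, with a log2 fold change of -0.40 (SE 0.66, edgeR adjusted p = 0.817). With pool 1 alone this was 1.18 and with pool 2 alone -1.13.

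Syt1, the calcium sensor of fast release (ENSMUSG00000035864; chromosome 10, 108333505 to 108846856, minus strand), read 1711, 2375 and 1697 counts against 1403 and 2925. Its group means were 44.0 ± 9.85 and 43.7 ± 22.7 CPM and its log2 fold change 0.01 (SE 0.34, edgeR adjusted p = 0.993). The values with 1 Gpnmb+ pool were 0.67 for pool 1 and -0.44 for pool 2, so that a mean difference near 0 stood beside a 2.16-fold gap between the Gpnmb+ pools.

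Tubb3, the neuron-specific beta-tubulin (ENSMUSG00000062380; chromosome 8, 124138163 to 124150092, plus strand), read 39, 65 and 49 counts against 34 and 83. The log2 fold change was -0.02 (SE 0.46, edgeR adjusted p = 0.986), with 0.79 for pool 1 alone and -0.54 for pool 2 alone. Only uniquely aligned reads were summed, which may undercount genes with close paralogs such as the tubulins. The upstream neighbour Mc1r lies 680 bases away on the same strand and read 3 to 46 counts.

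These 5 genes, Nefh, Ina, Snap25, Syt1 and Tubb3, were lowest in Gpnmb+ pool 1 and highest in Gpnmb+ pool 2, a pattern shown by 4.82% of all genes. The sign of their genotype difference depended on which Gpnmb+ pool was kept, as it did for 31.7% of all genes. Within DBA/2J, pool 2 was the highest for all 5, as it was for the summed photoreceptor genes.

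Promoters are shown for 3 of these genes that moved together across the pools, and for Prph, which did not move with them. The sequences are the 250 bases before the start of the transcript, from RefSeq (GRCm38.p6), 5′ to 3′ on the strand of the gene. A total of 6 windows were matched, 1 each for Ina, Prph, Uchl1 and Tubb3 and 2 for Syt1, of which the first is shown. Capitals mark exact matches on either strand to TATAAA, the CCAAT box, the GC box GGGCGG, the cAMP response element TGACGTCA, or to the left (TCAGCACC) or right (GGACAG) part of RE1, the element bound by the neuronal gene repressor REST.
Ina, chr19:47014431-47014680, plus strand: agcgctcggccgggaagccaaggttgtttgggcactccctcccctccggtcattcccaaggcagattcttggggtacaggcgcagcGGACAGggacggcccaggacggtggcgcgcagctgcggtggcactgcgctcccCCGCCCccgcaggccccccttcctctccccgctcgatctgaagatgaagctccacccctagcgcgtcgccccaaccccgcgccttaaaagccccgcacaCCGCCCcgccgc
Syt1, chr10:109010976-109011225, minus strand: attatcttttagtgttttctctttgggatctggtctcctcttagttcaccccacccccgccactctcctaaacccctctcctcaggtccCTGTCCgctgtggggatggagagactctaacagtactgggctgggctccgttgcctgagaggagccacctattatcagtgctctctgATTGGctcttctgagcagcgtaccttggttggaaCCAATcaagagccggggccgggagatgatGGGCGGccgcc
Tubb3, chr8:123411303-123411552, plus strand: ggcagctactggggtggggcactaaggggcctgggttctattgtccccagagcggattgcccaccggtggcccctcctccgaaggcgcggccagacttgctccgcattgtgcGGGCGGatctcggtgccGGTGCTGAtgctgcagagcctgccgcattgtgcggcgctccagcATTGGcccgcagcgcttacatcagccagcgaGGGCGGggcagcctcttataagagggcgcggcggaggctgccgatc
Prph, chr15:99054924-99055173, plus strand: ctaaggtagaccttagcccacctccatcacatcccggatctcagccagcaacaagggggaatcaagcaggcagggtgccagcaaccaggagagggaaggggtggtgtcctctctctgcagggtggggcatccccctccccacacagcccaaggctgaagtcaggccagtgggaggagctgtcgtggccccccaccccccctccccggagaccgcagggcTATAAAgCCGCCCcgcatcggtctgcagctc
Each of the 4 windows shown held a GC box, as did 32.7% of 32851 promoters of this length, whereas the Uchl1 window and the other Syt1 window matched none of the motifs. The Ina and Syt1 windows held the right part of RE1 (18.7% of promoters), 164 and 161 bases before the start, and the Tubb3 window the left part (1.32%), 121 bases before it. Prph had TATAAA 31 bases before its start (12.4%) and no match to either part of RE1. CCAAT was present for Syt1 and Tubb3 (33.8%). GC content was 70.8% for Ina, 56.4% for Syt1, 68% for Tubb3 and 65.2% for Prph, against a median of 52.4%. A match is a stretch of letters and not evidence that a factor binds.

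The growth-associated gene Stmn2, which encodes a destabiliser of microtubules in growing axons (ENSMUSG00000027500; chromosome 3, 8574151 to 8626667, plus strand), read 410, 318 and 386 counts in DBA/2J, against 344 and 282 in Gpnmb+. In CPM every DBA/2J pool was above both Gpnmb+ pools, 8.43 ± 0.93 against 6.27 ± 0.72. The log2 fold change was 0.43 (SE 0.17), with an unadjusted p of 0.0413 that did not hold after adjustment (edgeR adjusted p = 0.290). It was 0.31 with pool 1 alone and 0.55 with pool 2 alone. Uchl1, an abundant neuronal enzyme of ubiquitin turnover (ENSMUSG00000029223; chromosome 5, 66832748 to 66845009, plus strand), read 290, 293 and 272 counts against 217 and 317. Its groups overlapped, with a log2 fold change of 0.27 (SE 0.21, edgeR adjusted p = 0.591), and it varied by 1.12-fold among the DBA/2J pools. The difference was 0.60 with Gpnmb+ pool 1 alone and 0.0024 with pool 2 alone. Stmn2 and Prph were lower in Gpnmb+ pool 2 than in pool 1, by ratios of 0.85 and 0.66, the opposite order of that of the photoreceptor genes.

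Levels were compared between genes per kb of the canonical transcript. In DBA/2J the order was Syt1 (9.22 ± 2.07 CPM per kb), Snap25 (8.40 ± 3.62), Stmn2 (3.94 ± 0.43), Uchl1 (3.57 ± 0.20), Nefm (2.64 ± 1.15), Nefl (1.79 ± 0.67), Prph (0.742 ± 0.201), Ina (0.462 ± 0.189), Tubb3 (0.363 ± 0.101) and Nefh (0.248 ± 0.0717). The gaps below Snap25 and below Nefl were wider than the SDs, while all other neighbours in this order overlapped within theirs. In Gpnmb+ Nefm came first at 18.02 ± 5.85 CPM per kb, ahead of Snap25 (11.1 ± 10.4), Syt1 (9.17 ± 4.77) and Nefl (6.06 ± 2.35), and the spreads of neighbours among these 4 overlapped. Nefh was the lowest member in both groups, 0.287 ± 0.276 CPM per kb in Gpnmb+. Nefm and Nefl were above Nefh, Ina and Prph per kb in every pool.

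**Figure D3:**
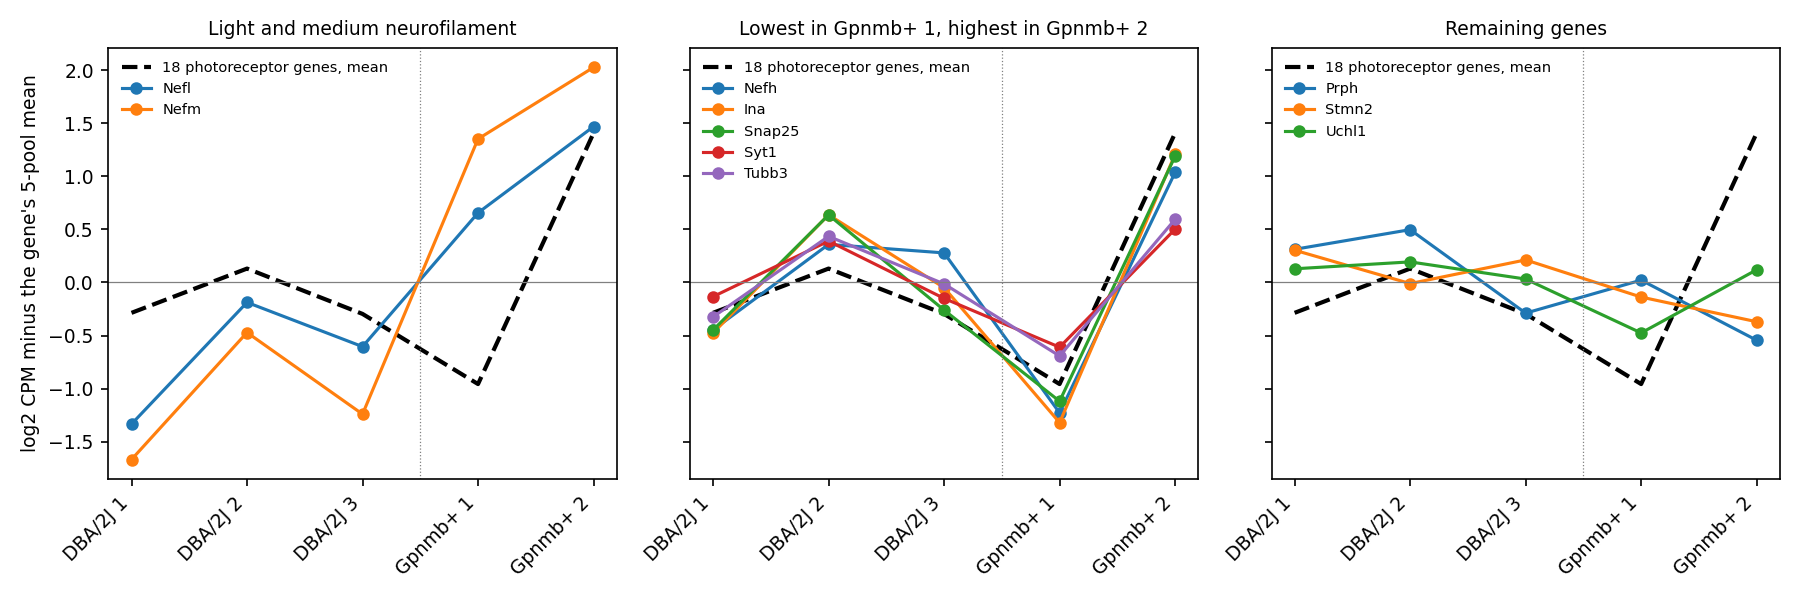
Log2 CPM of each gene in each pool minus the gene's mean over the 5 pools, with the mean profile of 18 photoreceptor genes (dashed). Lines join the values of 1 gene and imply no order of pools. Nefh, Ina, Snap25, Syt1 and Tubb3 are lowest in Gpnmb+ pool 1 and highest in pool 2 like the photoreceptor genes, whereas Nefl and Nefm are above their mean in both Gpnmb+ pools.

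Because the pools may carry different amounts of retina, the members were set against Gnat1, the transducin gene of rods, after the values were seen and as a description only. Gnat1 read 5629, 7691 and 5445 counts in DBA/2J, against 3991 and 20326 in Gpnmb+. Snap25 counts were 10.7, 16.02 and 12.6% of Gnat1 counts in DBA/2J, against 10.8 and 10.1% in Gpnmb+, while Gnat1 itself differed 5.28-fold between the Gpnmb+ pools. Nefh was 0.533, 0.676 and 0.937% of Gnat1 against 0.476 and 0.472%, and Ina was 0.782, 1.22 and 1.102% against 0.677 and 0.787%. Syt1 and Tubb3 differed more between the Gpnmb+ pools. Syt1 was 30.4, 30.9 and 31.2% against 35.2 and 14.4%, and Tubb3 was 0.693, 0.845 and 0.900% against 0.852 and 0.408%. Nefm was 4.49, 7.31 and 6.28% of Gnat1 in DBA/2J, against 59.0 and 17.8% in Gpnmb+, and Nefl was 2.97, 4.67 and 5.12% against 19.1 and 6.36%. Relative to Gnat1 as in CPM, both were higher in both Gpnmb+ pools than in any DBA/2J pool, and the ratio was highest in the pool with the least Gnat1. The part of retinal RNA in the levels of the members was not tested.

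**Figure D4:**
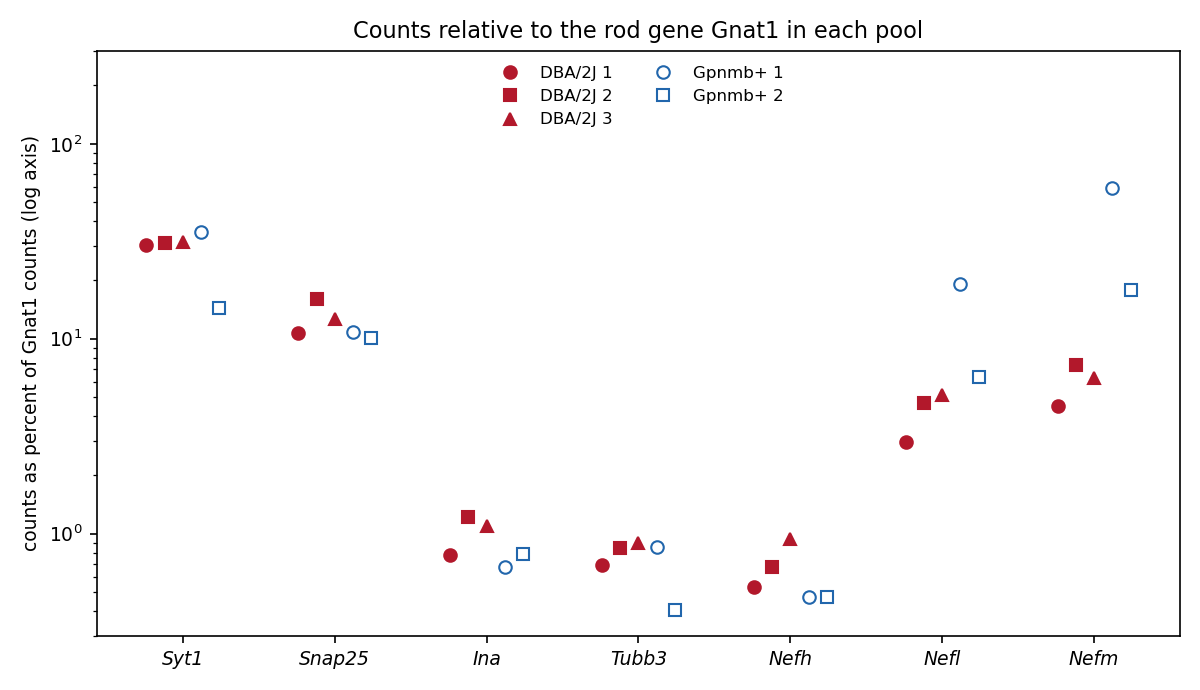
Counts of 7 members as a percent of the Gnat1 counts of the same pool, on a log axis. Filled red symbols are the 3 DBA/2J pools and open blue symbols the 2 Gpnmb+ pools. Snap25 lies between 10.1 and 16.02% in all pools, whereas Nefm is at most 7.31% in DBA/2J and 17.8 and 59.0% in Gpnmb+.

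All 18 photoreceptor genes had a negative log2 fold change (median -0.77), as did 10363 of 19713 genes tested. Of the 18, 0 were called by edgeR, by DESeq2 or by limma-voom, and 0 had an unadjusted p under 0.05 in edgeR. The median was 0.92 with Gpnmb+ pool 1 alone and -1.51 with pool 2 alone, and 16 of the 18 were lowest in pool 1 and highest in pool 2. Gnat1 read a log2 fold change of -0.79 (SE 0.62, edgeR adjusted p = 0.583). Among 16 inner retina genes, led in level by Trpm1 and Slc6a9, 14 were tested and 0 were called by edgeR or limma-voom (1 at an unadjusted p under 0.05, and 1, Slc6a9, by DESeq2). The median gap between the Gpnmb+ pools was 4.07-fold. Trpm1 did not share it: it read 17887 to 25892 counts, and Gpnmb+ pool 2 was 0.78 times pool 1 in CPM. Grm6 of the same list read 21 to 97 counts, so the level of Trpm1 does not stand for the list. Gad1, which makes the transmitter of amacrine cells, read 130, 368 and 178 counts against 100 and 443. Retinal ganglion cell markers did not show a shared direction: of 12 genes 10 were tested, 0 were called by edgeR, DESeq2 or limma-voom (1 at an unadjusted p under 0.05) and the median log2 fold change was 0.06 (0.35 with pool 1 alone and -0.33 with pool 2 alone). Of its Pou4f transcription factor genes, Pou4f2 and Pou4f3 read at most 5 counts in any pool and Pou4f1 read 7 to 24, while Slc17a6 read 16 to 65 and Chrna6 40 to 142. The most abundant genes of that list, Thy1 and Tubb2b, are also expressed outside ganglion cells.

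Genes that mark the sensory and autonomic neurons whose fibres reach the angle were partly at or near 0 and partly present at counts like those of the less abundant members. Of 18 sensory neuron genes 11 passed the count minimum, and the nociceptor channels Scn10a and Trpv1 read at most 1 and 2 counts in any pool. Prdm12 read 0 in all pools, while Tac1 read 21 to 34 and Pirt 21 to 62 counts. The most abundant genes of the list, Piezo2 and Ret, which are also expressed outside sensory neurons, read 1682 to 3185 and 511 to 895 counts. Its median log2 fold change was 0.21 (-0.34 with Gpnmb+ pool 1 alone and 0.66 with pool 2 alone). Of this list, 0 genes were called by edgeR, DESeq2 or limma-voom. At an unadjusted p under 0.05 in edgeR there were 2, Piezo2 and Ret, both lower in DBA/2J. The autonomic list had 13 of 16 genes tested and a median of -0.41 (0.11 with pool 1 alone and -0.64 with pool 2 alone), with 0 called by edgeR or limma-voom, 2 at an unadjusted p under 0.05 and 1, Ddc, called by DESeq2. In this list Dbh and Hand2 read at most 3 counts, the transporters Slc6a2 and Slc18a2 read 68 to 124 and 72 to 148, and the neuropeptide gene Npy read 330, 428 and 540 counts in DBA/2J, against 610 and 1406 in Gpnmb+ (log2 fold change -1.05, SE 0.38, edgeR adjusted p = 0.268).

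Other genes of the same processes were called in both directions. Over the 12 pathway and neuronal lists, 189 of 203 genes were tested, and 1 was called higher and 2 lower in DBA/2J, where 0.502% and 0.294% of all genes were called. The 1 called higher was Kif5c, a kinesin heavy chain that moves cargo along axons, among 20 genes of axonal cytoskeleton and transport (median -0.02). It read 1320, 1399 and 1485 counts against 718 and 849, a log2 fold change of 1.02 (SE 0.13, edgeR adjusted p = 0.0382), and its call was lost without any 1 of the 5 pools (adjusted p = 0.0658 to 0.132). The called synaptic gene was Syt4, a synaptotagmin of secretory vesicles that does not sense calcium as Syt1 does, among 28 genes of vesicle release (median -0.10). Syt4 read 267, 364 and 422 counts in DBA/2J, against 2554 and 2790 in Gpnmb+. Both Gpnmb+ pools were high and close to each other, unlike for Syt1. The log2 fold change was -2.75 (SE 0.20, edgeR adjusted p = 0.0175), and it was called in neither the fit without DBA/2J pool 2 (adjusted p = 0.0775) nor that without Gpnmb+ pool 2 (0.0891).

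Scn8a, the sodium channel of mature nodes of Ranvier, was the gene called among 17 axonal channel and node genes (median -0.05). It read 62, 65 and 77 counts in DBA/2J against 294 and 420 in Gpnmb+ (log2 fold change -2.22, SE 0.23, edgeR adjusted p = 0.0283). The call held without Gpnmb+ pool 1 and was lost without any other pool (adjusted p = 0.0944 to 0.117). The most abundant genes of its list, the node scaffold genes Nfasc and Ank3, had positive log2 fold changes of 1.18 and 0.59. EdgeR did not call them (adjusted p = 0.110 and 0.0501). Cntnap1 of the same list was also higher in DBA/2J, at 0.78 (edgeR adjusted p = 0.0501), and was not called. In this list of channel and node genes DESeq2 called 4 (Scn8a lower, and Ank3, Cntnap1 and Nfasc higher in DBA/2J) and limma-voom 3. In the vesicle release list DESeq2 called 3 (Syt4, Syn2 and Rab3c) and in the transport list 2 (Kif5c and Dst). Limma-voom called 1 in each of these lists. The edgeR log2 fold changes of Syn2, Rab3c and Dst were -1.30, -1.39 and -0.63 (adjusted p = 0.0630, 0.193 and 0.0858). No gene of growth cone and axon adhesion was called among 20 (median -0.10), nor among 20 neuronal RNA-binding and secretory genes (median -0.12). In the RNA-binding list 20 of 20 were higher in Gpnmb+ pool 2 than in pool 1, as were 9855 of 19713 genes tested. The median of that list was 0.85 with Gpnmb+ pool 1 alone and -0.63 with pool 2 alone. For vesicle release it was 0.20 and -0.32, and for axonal channels and nodes 0.24 and -0.26. At an unadjusted p under 0.05, the growth cone and the RNA-binding lists had 4 and 1 genes, and DESeq2 called 3 (Cntn1, Nrcam and Rtn1) and 1 (Snhg11) where limma-voom called 0. The adhesion gene Nrcam and the reticulon Rtn1 had edgeR log2 fold changes of -0.75 and -1.12 (adjusted p = 0.0548 and 0.0795). Cntn1 went the other way, at 1.61 (edgeR adjusted p = 0.0976). It read 9764, 11127 and 10835 counts in DBA/2J, against 5513 and 2396 in Gpnmb+.

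Among glial genes, S100b was called lower in DBA/2J, as Nefm was. Of 12 myelinating Schwann cell genes 9 had negative values (median -0.54), as did 9 of 12 nonmyelinating Schwann cell genes (median -0.33). At an unadjusted p under 0.05, 7 myelinating genes were lower and 1 higher, where 15.9% of all genes passed. DESeq2 called 4 of them (4.7% of all genes) and limma-voom 1 (0.964%). In the nonmyelinating list 4 were lower and 2 higher at that p, and DESeq2 called 3 and limma-voom 2. S100b, a calcium-binding protein of glia in the latter list, read 414, 535 and 620 counts against 2115 and 2745 (log2 fold change -2.04, SE 0.21, edgeR adjusted p = 0.0262). In CPM, Gpnmb+ pool 2 was 1.35 times pool 1 for S100b. Its call was lost without any 1 DBA/2J pool or without Gpnmb+ pool 2 (adjusted p up to 0.107). Tubulin isotypes other than Tubb3 gave 0 calls among 10 with a median of 0.29, and other intermediate filament genes, led by Vim and Lmna, gave 0 among 8 with a median of 0.10 (-0.03 with Gpnmb+ pool 1 alone). At an unadjusted p under 0.05 there were 3 and 0, and DESeq2 and limma-voom called 0 in both lists.

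**Figure D5:**
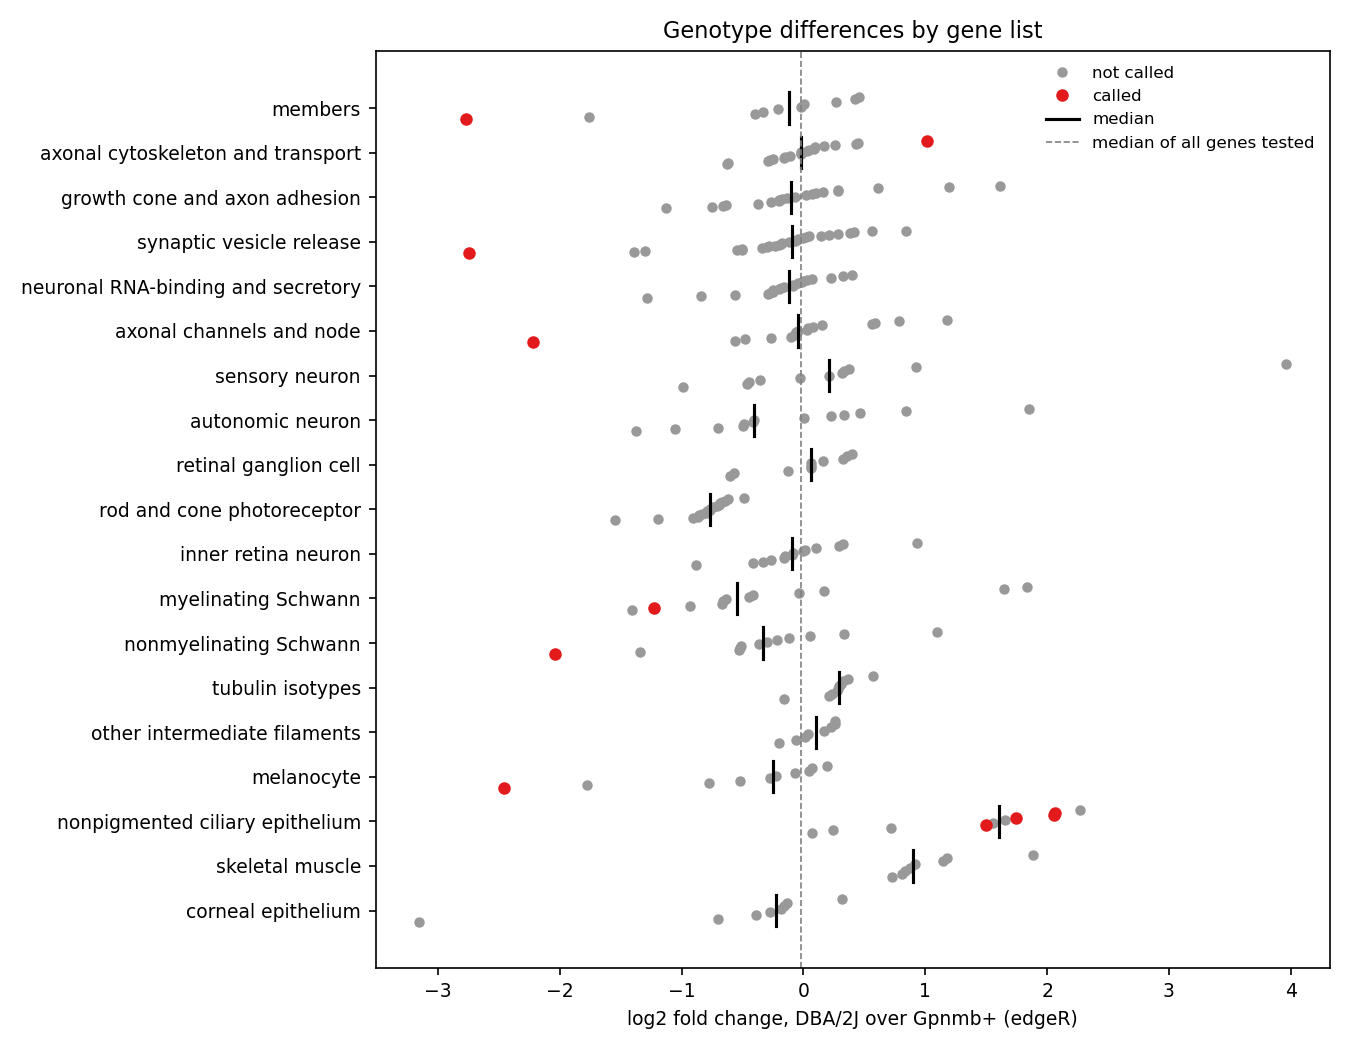
Log2 fold change, DBA/2J over Gpnmb+ (edgeR, all 5 pools), of every tested gene in each list. Grey points are not called and red points called, vertical bars are list medians and the dashed line is the median of all genes tested. Nefm, Syt4 and Scn8a are called lower and Kif5c higher among the neuronal lists, and the nonpigmented ciliary epithelium list has a median of 1.61.

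Marker lists of other tissues in the dissection were set beside these genes. All 10 nonpigmented ciliary epithelium genes had positive values (median 1.61, summed CPM 1796 to 2333 against 1267 and 980), as did 9350 of 19713 genes tested. At an unadjusted p under 0.05 there were 8, all higher, where 15.9% of all genes passed. DESeq2 called 8 of them and limma-voom 5. Six6, Mlc1 and Col9a1 were among those called by edgeR. Without Gpnmb+ pool 2 or DBA/2J pool 2 these 3 calls were lost, and those of Six6 and Col9a1 also without DBA/2J pool 1 or 3 (adjusted p = 0.0694 to 0.119 over these fits). All 8 skeletal muscle genes had positive values (median 0.90), with 0 called by edgeR or limma-voom, 2 at an unadjusted p under 0.05 and 2 called by DESeq2. Of 10 melanocyte genes 7 had negative values (median -0.25). At an unadjusted p under 0.05 there were 5, all lower, and DESeq2 called 2 and limma-voom 1. The pigment transporter gene Slc45a2 was called lower by edgeR at -2.46 (SE 0.25, edgeR adjusted p = 0.0262). That call was lost without DBA/2J pool 1 (adjusted p = 0.117) or pool 2 (0.0906), or without Gpnmb+ pool 2 (0.110). Among 8 corneal epithelium genes (median -0.23) 0 were called by edgeR, DESeq2 or limma-voom, and 1 had an unadjusted p under 0.05. The part of tissue composition in the differences of Nefl and Nefm was not tested.

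The genes whose pool profile was most like the mean profile of Nefl, Nefm and Nefh, by root mean square difference of centred log2 CPM over 5 pools among 15020 genes, were Ttr (0.166), Gria2 (0.171), Rgr (0.172), Slc16a8 (0.198) and Slc4a10 (0.221). Ttr, Rgr and Slc16a8 are known for strong expression in the retinal pigment epithelium, and Gria2 encodes a glutamate receptor subunit. Nefl lay at 0.203 from that mean, and Nefm and Nefh at 0.690 and 0.870, so the mean stood for Nefl better than for the others. Profiles were therefore also ranked for Nefl and Nefm alone and for Snap25, a choice made after the values were seen. Nearest to Nefl and Nefm were Mcoln3, Chst5, Cldn10, Car3 and S100b (0.257 to 0.317). Nearest to Snap25 was Cplx1 (0.0751), the complexin that clamps the same fusion complex, followed by Ccdc177, Fabp2, Svop and Lrit1. Cplx1 read 42, 88 and 48 counts in DBA/2J, against 28 and 129 in Gpnmb+.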

How the data were processed

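RNA was measured in 5 pools (3 DBA/2J, 2 Gpnmb+). After trimming (fastp) and STAR alignment against GRCm39, the authors summed uniquely aligned reads by gene, and these raw counts are the values they deposited. Tool versions and the strand setting were not given in the sources used here. Identifiers were named from the GENCODE annotation (Ensembl 116, GRCm39), which matched 56323 of 56941.

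The 19713 genes that reached 10 counts in 1 pool or more were scaled by TMM and tested with edgeR 4.0.16 (quasi-likelihood, no covariate) in R 4.3.3. The standard error is the absolute log2 fold change divided by the square root of F. CPM are TMM-scaled, and log2 CPM add a prior count of 2. Alternatives were DESeq2 1.42.0 (size factors and Wald test), limma-voom (limma 3.58.1), filterByExpr, no count filter, a replicate block and leaving out each pool. The scripts were tested on simulated data. Tables were made with Python 3.11.15, pandas 2.3.3 and numpy 2.4.6. Pools are separate groups of animals by their library names, and p-values measure the spread between these pools.

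The members and gene lists were chosen with earlier results of these data known. All members were named, in other lists each called gene or else the 2 of highest mean CPM, and the 5 genes of nearest profile (mean count at least 50). Some genes under this rule are not reported here. Chosen after the values were seen were the ratios of Nefm to Nefl and of members to Gnat1, and the profiles of Nefl with Nefm and of Snap25. So were the genes named outside this rule (Gad1, Grm6, Cntn1, Nrcam, Rtn1, Snhg11, Cntnap1, Ddc, Dst, Syn2, Rab3c and the sensory, autonomic and ganglion cell markers). Pool numbers are shared by 2 pairs and no source says that they pair the pools.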

Additional observations from a re-analysis of the deposited data

How the results depend on the processing

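Direction was kept by Nefl, Nefm, Prph, Stmn2 and Uchl1 in all 11 alternatives. Values with the opposite sign were Nefh 0.20, Ina 0.12 and Tubb3 0.093 with limma-voom. When 1 pool was left out, log2 fold changes ranged from -0.96 to 1.42 for Nefh, -1.12 to 1.50 for Ina, -1.13 to 1.18 for Snap25, -0.44 to 0.67 for Syt1 and -0.54 to 0.79 for Tubb3. Of the 10 members, 1 was called with all pools, 2 (Nefl and Nefm) by DESeq2's Wald test, and 0 to 1 with 1 pool left out. Of the neuronal list genes, 3 were called, against 15 by DESeq2, 5 by limma-voom, 8 with no count filter, and 0 to 10 with 1 pool left out. Over all genes 157 were called, against 927 by DESeq2, 360 with no count filter, and 1 to 217 with 1 pool left out. With 1 Gpnmb+ pool left, that pool is assumed to vary like the others. The causes of these changes were not tested.

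The replicate block, which pairs pools by number, called 220 genes and 2 members: Nefl (log2 fold change -1.82, edgeR adjusted p = 0.0317) joined Nefm. Under it Ina (0.056), Snap25 (0.041) and Tubb3 (0.088) turned to positive values. Deviations of same-numbered pools correlated across genes at 0.279 and 0.254, with only 2 pairs and with crossed values fixed to the opposite sign by the 2 Gpnmb+ pools. Depth limits Nefh, Ina, Prph and Tubb3, which read 19 to 160 counts.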
